A study of Mus musculus with 6 samples.

Results

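The genes described here are 9 genes by which primordial germ cells, the precursors of eggs and sperm, are recognised in the early mouse embryo: Prdm1, Prdm14, Dppa3, Ifitm1, Ifitm3, Nanos3, Kit, Dnd1 and Alpl. Every probe set of the array (a group of short probes for a transcript) whose only annotated symbol is one of these was taken, without regard to its values. The genes themselves were chosen with earlier results of these data known. That gave 9 probe sets for 8 genes, of 45037 probe sets in all, with 2 for Kit and 1 for each of the others. Nanos3 has no listed probe set and is named only.

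The samples were 3 pools of Wnt3a null and 3 pools of Wnt3a wild-type embryos on a mixed C57BL/6 and 129/Sv background, at embryonic days 7.75 to 8 (0 to 2 somites). Each pool held RNA of the microdissected node and primitive streak from 3 embryos and was measured on 1 Affymetrix Mouse Genome 430 2.0 array, so 9 embryos stand behind each genotype. The labels state the genotype only as null and do not describe the allele, and the study asked which genes act downstream of Wnt3a, a secreted signal made in this region. Both genotypes have pools numbered 1 to 3, and differences between pools of one number are given as pairs below.

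Germ cells arise from a few epiblast cells next to the extraembryonic tissues, under BMP and Wnt signals, and gather at the base of the allantois, behind the primitive streak. Prdm1, Prdm14 and the transcription factor Tfap2c switch the somatic programme off and keep pluripotency genes on. Most of the other genes mark the cells' surface or protect them, and several are also made by neighbouring somatic tissues.

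The arrays had median signals of 73.7 to 86.4 (linear units). The Wnt3a probe set had 961, 761 and 1009 in null pools 1 to 3 and 864, 1058 and 996 in wild-type pools, with a difference of -0.10 on the log2 scale. Its place relative to the altered part of the gene is not stated, so it does not check the labels. Node and streak markers were present, among them Foxa2 at 302 to 598 and Evx1 at 442 to 1524, and so were visceral endoderm markers (Ttr at 13561 to 26487). Of the genes taken to define germ cells, Prdm14 had 4.13 to 75.1, Dppa3 had 31.5 to 99.9 and Nanos3 was not measured. These values do not establish that germ cells were in the dissected tissue. Wild-type pool 1 stood apart in sex composition, with a signal of 4.31 for the Y-linked gene Eif2s3y against 1053 to 1788 in the other 5 pools. Gapdh signal at the 3′ end over that at the 5′ end, which reflects RNA integrity, moved with genotype (null 2.09 to 2.39, wild type 2.51 to 3.00). For beta-actin this quotient overlapped between genotypes (null 2.38 to 3.83, wild type 2.68 to 3.69). The part of RNA integrity in the results below was not tested.

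None of the 9 probe sets passed the test (limma, adjusted p of 1.00 for each, Benjamini-Hochberg over 45037 probe sets, threshold 0.05). The same test called 0% of all probe sets in either direction, and at an unadjusted p under 0.05, which 5.05% of all probe sets had, there were also 0 members. By value, 5 of the 9 were higher and 4 lower in null pools, and the median log2 difference was 0.46, against 0.01 over all probe sets. With 1 probe set per gene, 4 genes were higher and 4 lower and the median was 0.05, so the median over probe sets turns on whether Kit enters with both of its probe sets. The sizes of the differences were alike, from 0.35 to 0.54 on the log2 scale in either direction, and every 95% interval held 0. With 3 pools against 3, the smallest p an exact two-sided permutation test can give is 0.1. A miss of the threshold here does not show that levels were equal.

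For 3 of the 9 probe sets the null and wild-type pools did not overlap: Prdm1 was higher, and Ifitm1 and Alpl were lower. Over all probe sets 9.98% did not overlap, 5.57% higher and 4.41% lower in null pools, so 1 member of 9 higher and 2 lower are small numbers to read against that background. By pairs, 5 of 9 had 1 sign in all 3 pairs, 3 higher (Prdm1, Ifitm3, Dnd1) and 2 lower (Ifitm1, Alpl), against 28.7% of all probe sets, 15% higher and 13.7% lower. In dissected tissue, fewer cells of a type and less RNA per cell cannot be told apart.

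**Figure D1:**
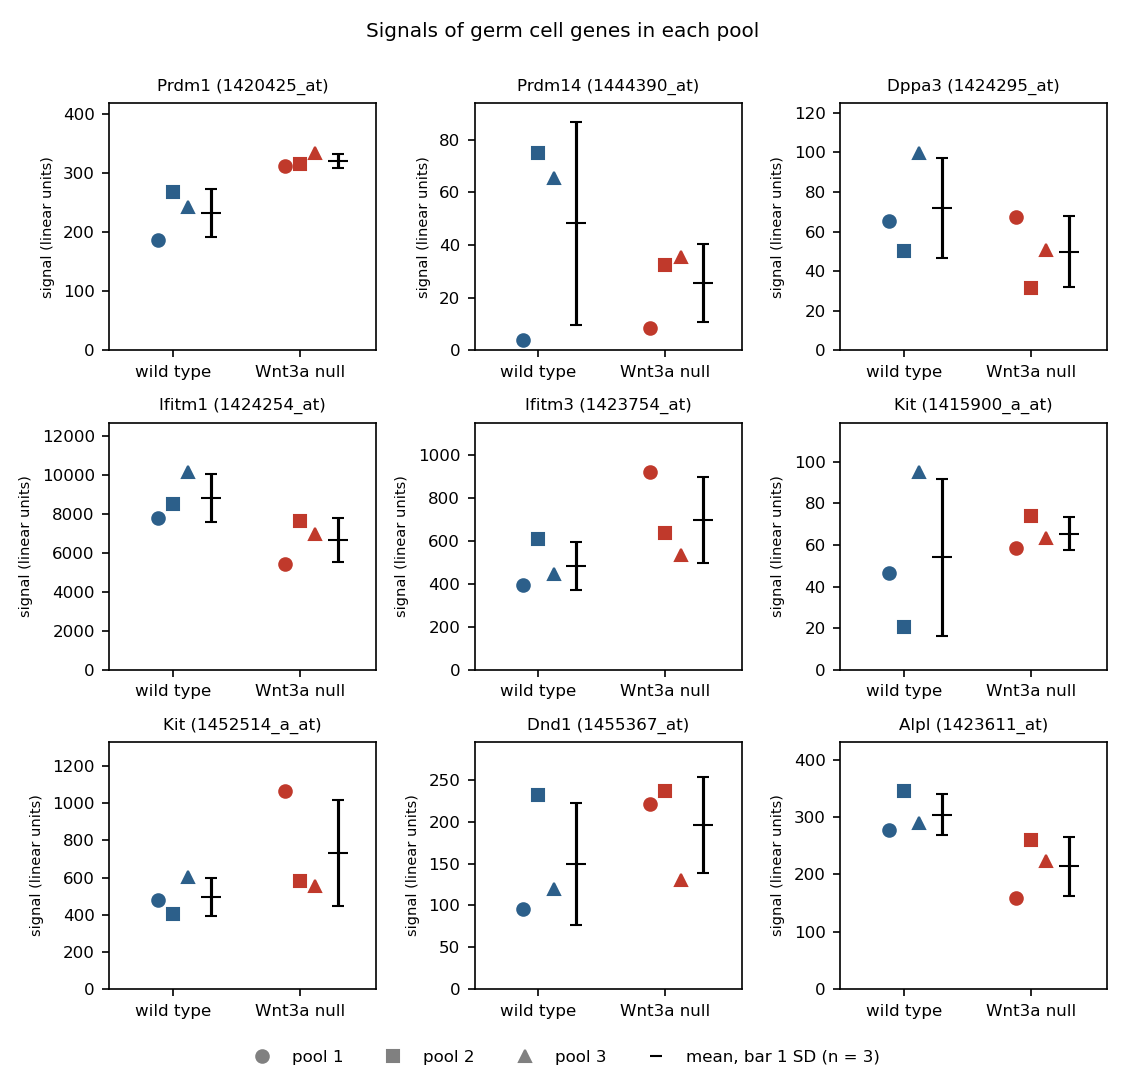
Signal of each germ cell probe set (vertical axes, linear units from 0, scaled per panel) in 3 wild-type (blue) and 3 Wnt3a null (red) pools; symbols are pool numbers, and the dash with bar is the mean ± 1 SD. The null and wild-type pools are separated for Prdm1, Ifitm1 and Alpl, and overlap for the other 6 probe sets.

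Of the transcriptional regulators, Prdm1 (also called Blimp1), the zinc finger repressor of the somatic programme, had signals of 312, 314 and 334 in null pools 1 to 3 and 187, 267 and 242 in wild-type pools. All 3 null pools lay above all 3 wild-type pools, and the null pools were close together. The means were 320 ± 12.3 and 232 ± 41.0 (SD, n = 3 each), 1.39-fold higher in null. The log2 difference was 0.48, with a 95% interval from -0.08 to 1.03 (limma, adjusted p = 1.00; exact permutation p = 0.1, two-sided). It was 0.74, 0.23 and 0.46 in pairs 1 to 3, and leaving out any single array kept it between 0.33 and 0.59.

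Prdm1 is also made in visceral endoderm, the outer layer of the embryo. Of 7 measured visceral endoderm markers 1 was higher and 6 were lower in value in null pools. Their summed signal ranged from 40450 to 57982 in null pools and from 34220 to 82801 in wild-type pools. The top sum was in wild-type pool 2, and the lowest signal of a marker was 2153. The part of this tissue in the Prdm1 values was not tested.

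Prdm14, a regulator that keeps pluripotency genes on in germ cells, had 8.61, 32.3 and 35.6 in null pools and 4.13, 75.1 and 65.6 in wild-type pools. On every array it lay below the median, between the percentiles 6.50 and 48.2 of that array's probe sets. The pools numbered 1 were the lowest of both genotypes. The log2 difference of -0.35 had an interval from -3.55 to 2.86, the widest among the 9 probe sets, and it changed sign when null pool 1, wild-type pool 2 or wild-type pool 3 was left out (0.31, 0.38 and 0.29). Without wild-type pool 1 it was -1.71, and the groups then did not overlap, as for 20.4% of all probe sets in that setting. At this signal a difference of several fold in either direction was not detectable.

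Dppa3 (Stella), a small nuclear protein that protects DNA methylation and marks newly formed germ cells, had 67.6, 31.5 and 50.7 in null pools and 65.5, 50.3 and 99.9 in wild-type pools. The groups overlapped, with pair 1 near 0 (0.05) and pairs 2 and 3 lower (-0.67 and -0.98). The log2 difference was -0.54, with an interval from -1.54 to 0.47. Dppa3, like Prdm14, lay near or below the arrays' median signal.

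**Figure D2:**
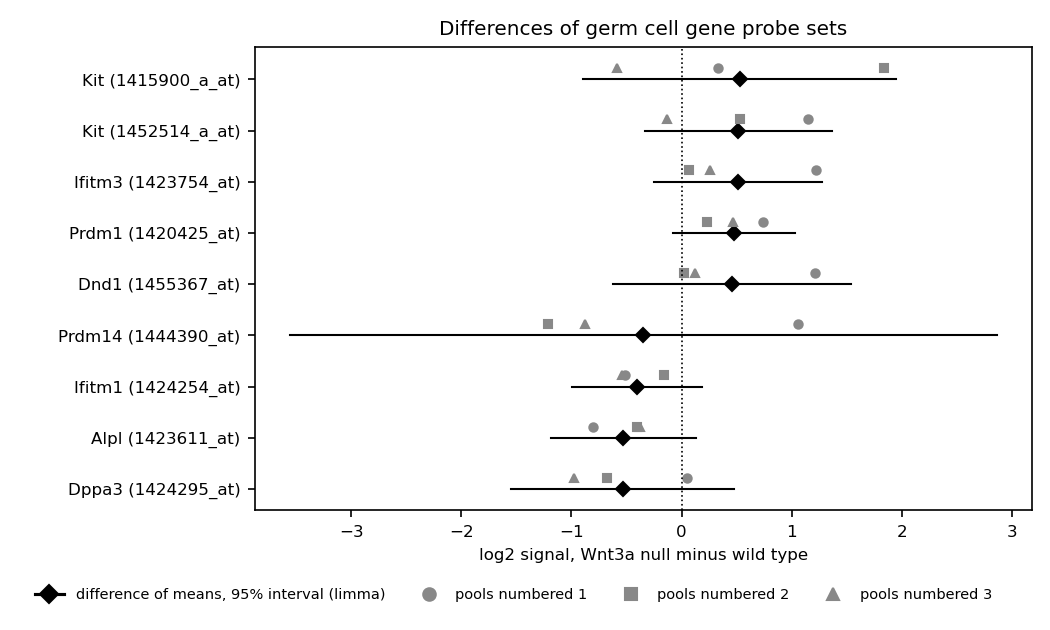
Log2 difference (Wnt3a null minus wild type, horizontal axis) of each germ cell probe set, with the limma estimate and its 95% interval in black and the difference of pools with the same number in grey. The dotted line marks 0; all 9 intervals cross it, and the one of Prdm14 runs from -3.55 to 2.86.

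Ifitm1 and Ifitm3 (fragilis) encode interferon-induced membrane proteins on the surface of cells that are competent to become germ cells. They are next to each other in the RefSeq gene order, in a run of Ifitm5, Ifitm2, Ifitm1, Ifitm3 and Ifitm6. Their promoter windows are shown because these neighbours had values in opposite directions, although neither difference passed the test. Both windows are RefSeq sequence of GRCm38.p6, from 250 bases before to 50 after the start site, 5′ to 3′ on the gene's strand. Capitals mark matches, on either strand, to CTTTGA, the core bound by the TCF and LEF factors of the Wnt pathway, or to GAAANNGAA, the first 9 bases of the core of the interferon-stimulated response element.
Ifitm1, chr7:140967826-140968125, plus strand: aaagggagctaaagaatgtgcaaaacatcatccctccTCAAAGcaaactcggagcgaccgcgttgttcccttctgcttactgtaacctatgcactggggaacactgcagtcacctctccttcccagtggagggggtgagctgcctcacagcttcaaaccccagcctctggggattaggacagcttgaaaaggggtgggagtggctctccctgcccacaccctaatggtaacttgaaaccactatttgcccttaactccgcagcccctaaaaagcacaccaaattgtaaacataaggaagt
Ifitm3, chr7:141010695-141010994, minus strand: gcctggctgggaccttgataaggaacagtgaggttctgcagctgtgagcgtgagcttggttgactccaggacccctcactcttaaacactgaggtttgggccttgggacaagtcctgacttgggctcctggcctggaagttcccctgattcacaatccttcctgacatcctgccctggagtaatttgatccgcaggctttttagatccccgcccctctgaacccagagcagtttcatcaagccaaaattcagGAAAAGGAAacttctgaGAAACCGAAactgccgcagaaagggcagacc

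The Ifitm1 window held 1 CTTTGA match, read on the opposite strand, beginning 213 bases before the start site, and no GAAANNGAA. The Ifitm3 window held 2 GAAANNGAA matches, beginning 2 and 19 bases after the start site, and no CTTTGA. Of 32851 windows of this length, 16% held CTTTGA and 8.56% held GAAANNGAA. Windows were available for 6 of the 9 genes (8 windows), of which 1 held CTTTGA and 1 held GAAANNGAA. The windows of Prdm1, Alpl, Kit and Nanos3 held neither set of letters. The part of these matches in the values was not tested.

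Ifitm1 had signals of 5449, 7649 and 6979 in null pools and 7780, 8542 and 10167 in wild-type pools. Every null pool was below every wild-type pool, although null pool 2 and wild-type pool 1 were close. The means were 6692 ± 1128 and 8830 ± 1219 (SD, n = 3 each), 1.32-fold lower in null, and the probe set lay at the percentiles 96.9 to 98.4 of the arrays. The log2 difference was -0.41, with an interval from -0.996 to 0.19 (limma, adjusted p = 1.00). The pairs stood at -0.51, -0.16 and -0.54. In a fit with the pool number as a block and limma's trend and robust options, which called 0.0488% of all probe sets, Ifitm1 had the smallest adjusted p of any member, 0.249.

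Ifitm3 had 919, 637 and 536 in null pools and 396, 607 and 447 in wild-type pools. The groups overlapped through null pool 3 and wild-type pool 2, and null pool 1 was far above the rest. The log2 difference was 0.52, with an interval from -0.25 to 1.28 (limma, adjusted p = 1.00). It was 1.22 in pair 1 and 0.07 and 0.26 in the other two.

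The 3 other genes of the run were measured as well. Ifitm2 had a log2 difference of -0.13 (null pools 1192 to 1395, wild-type pools 1232 to 1683). Ifitm5 had -1.28 at signals of 18.5 to 105, and Ifitm6 had -0.29 at signals of 27.9 to 52.3. The groups overlapped for each of them, so Ifitm1 was the only one of the 5 whose pools were separated.

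**Figure D3:**
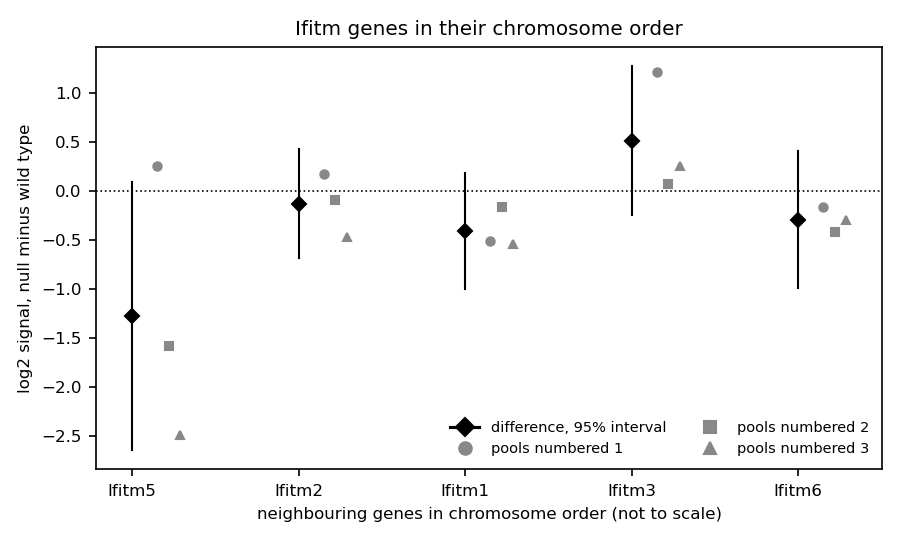
Log2 difference (null minus wild type, vertical axis) of 5 neighbouring Ifitm genes in chromosome order, spacing not to scale; diamonds with bars are limma estimates with 95% intervals, grey symbols the differences of pools with the same number. Ifitm3 lies above 0 at 0.52 and the other 4 lie below, and all 5 intervals cross 0.

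Alpl, the alkaline phosphatase whose enzyme activity is the classical stain for germ cells, had 159, 260 and 224 in null pools and 277, 345 and 290 in wild-type pools. No null pool reached the lowest wild-type pool. The means were 214 ± 51.2 and 304 ± 35.8 (SD, n = 3 each), 1.44-fold lower in null, and the log2 difference was -0.53, with an interval from -1.19 to 0.13 (limma, adjusted p = 1.00). It was -0.80, -0.41 and -0.37 in pairs 1 to 3, and between -0.68 and -0.33 when any single array was left out. Of its relatives, Alppl2 differed by -1.82 on the log2 scale at its brightest probe set, with signals of 4.12 to 57.3 and overlapping groups.

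Ifitm1, Ifitm3 and Alpl are also made in the extraembryonic and posterior mesoderm around the germ cells. Of 6 measured markers of allantois and other extraembryonic mesoderm 5 were higher in value in null pools, and their summed signal was 3338 to 3889 in null pools, against 1672 to 3341 in the wild type. Tbx20 and Hand2, the brightest of them in null pools, had log2 differences of 1.06 and 0.77. Tbx4 had 0.99, Hand1 and Postn had 0.07 each, and Foxf1 had -0.39. Of these markers only Tbx20 had groups that did not overlap. Of 6 markers of the primitive streak 5 were lower in value. Sums of the 6 did not overlap, at 3135 to 3670 and, for the wild type, 5206 to 7675. By log2 difference they were Cdx1 (-1.26), Mixl1 (-1.15), Evx1 (-0.97), Fgf8 (-0.31), Wnt3a itself (-0.10) and Eomes (0.20). Cdx1 alone had signals of 988 to 1066, against 2377 to 2505 in the wild type. These sums include the altered gene and are no measure of the amount of streak tissue. How often sums of such lists separate was not counted. The lowest signal of a marker was 8.84 in the mesoderm list and 94.5 in the streak list. The part of these tissues in the values of Ifitm1, Ifitm3 and Alpl was not tested.

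Kit, the receptor tyrosine kinase that germ cells need for survival and migration, had 2 probe sets. The brighter one had 1064, 584 and 554 in null pools and 481, 405 and 606 in wild-type pools. Null pool 1 was far above the others and wild-type pool 3 was above null pools 2 and 3. Its log2 difference was 0.52, with an interval from -0.33 to 1.37 (limma, adjusted p = 1.00), and 1.15, 0.53 and -0.13 in pairs 1 to 3. The dimmer one had 58.7, 74.1 and 63.4 in null pools and 46.6, 20.8 and 95.1 in wild-type pools. Its log2 difference was also positive, at 0.53, but turned to -0.03 without wild-type pool 2. Both probe sets target 1 gene and are not independent.

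Kit ligand, Kitl, the growth factor that binds Kit, had 1887, 3030 and 2441 in null pools and 2595, 2779 and 2851 in wild-type pools at its brightest probe set. The groups overlapped, with a log2 difference of -0.19, and the 3 other Kitl probe sets stood at 0.35, -0.08 and 0.37. Kit is also made in blood and endothelial progenitors. Of 9 measured markers of these cells 8 were higher in value in null pools. Their sums did not overlap, with 1398 to 1703 in null pools against 812 to 1344 in the wild type. Singly, only Kdr had groups that did not overlap (572 to 663 in null pools, 355 to 527 in wild-type pools). Hba-x, Hbb-y and Pecam1 had signals of at most 55.6, and each was lower in 1 of the 3 pairs. The lowest signal of a marker was 2.15, and the part of these cells in the Kit values was not tested.

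Dnd1, an RNA-binding protein that protects germ cell transcripts from microRNAs, had 221, 236 and 131 in null pools and 95.2, 232 and 120 in wild-type pools. The groups overlapped almost fully. The log2 difference was 0.46, with an interval from -0.63 to 1.54, of which pair 1 had 1.22 and pairs 2 and 3 had 0.03 and 0.13. Pair 1 had the highest log2 difference of the 3 pairs for 6 of the 9 probe sets, namely Prdm1, Prdm14, Dppa3, Ifitm3, the brighter Kit probe set and Dnd1. How often pair 1 was the highest over all probe sets was not counted, so 6 of 9 cannot be read as a trait of these genes. Pair 1 holds the wild-type pool that differed in sex composition. Without that pool the log2 differences of these 6 were 0.33, -1.71, -0.57, 0.38, 0.50 and 0.19, in that order, so that of Prdm14 moved most. Those of Ifitm1, Alpl and the dimmer Kit probe set were then -0.49, -0.59 and 0.55. Pair 1 also holds null pool 1. Without null pool 1 the log2 differences of the 6, in the same order, were 0.50, 0.31, -0.79, 0.30, 0.21 and 0.35.

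**Figure D4:**
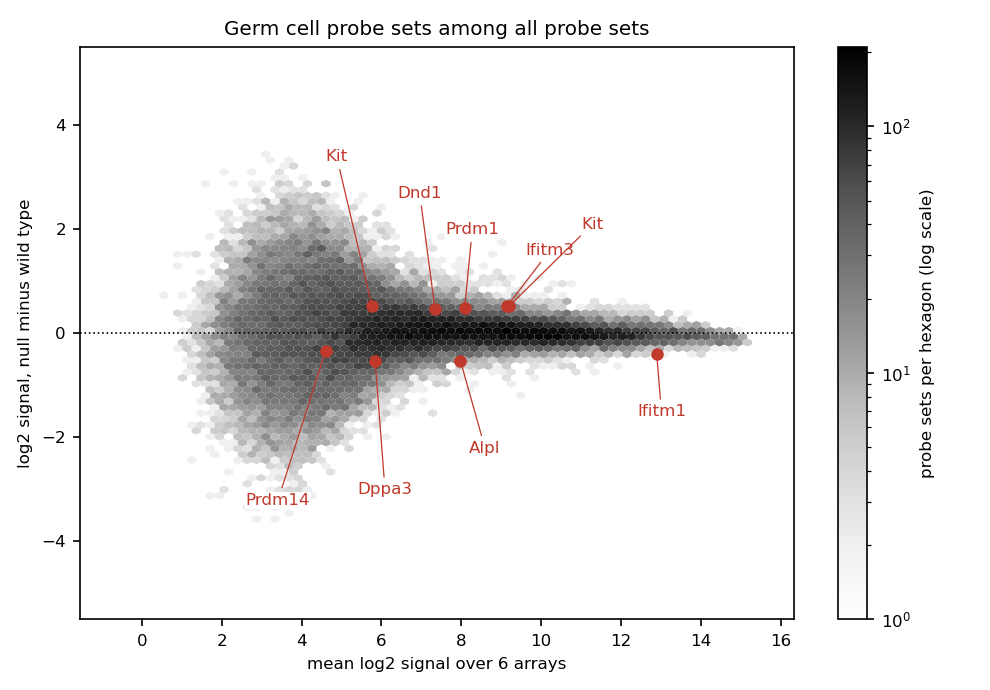
Mean log2 signal over the 6 arrays (horizontal axis) and log2 difference (null minus wild type, vertical axis) of all 45037 probe sets, shaded by number per hexagon, with the 9 germ cell probe sets in red. Differences of dim probe sets spread more widely than those of bright ones, and the members lie between -0.54 and 0.53, with Ifitm1 farthest to the right.

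Beyond the members, lists of related genes were read from the same fit at each gene's brightest probe set, and 0 of their genes passed the test in either direction (limma, adjusted over all probe sets). Over all 18193 genes the median log2 difference was 0.00, with 9239 higher and 8954 lower in value. The groups did not overlap for 10.1% of these genes, 1011 higher and 829 lower in null pools. In the lists below, in order, it was 1 of 10, 2 of 16, 1 of 6 and 1 of 9 genes, all higher. Among the 14 relatives it was 1 higher and 1 lower. Such small counts do not set the separated genes apart from that background.

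Of 10 upstream signals and their mediators 4 were higher and 6 lower in value, with a median log2 difference of -0.05. Bmp4, the BMP ligand that induces germ cells, had 503, 792 and 918 in null pools and 457, 1307 and 795 in wild-type pools. The groups overlapped, with a log2 difference of -0.13, and the pools numbered 1 were the lowest of both genotypes, as for Prdm14. Bmp2, a second BMP ligand, had 1945, 655 and 499 in null pools and 437, 490 and 306 in wild-type pools. The groups did not overlap, by a narrow margin, and the log2 difference of 1.09 had an interval from -0.31 to 2.49. Wnt3, the relative of Wnt3a that acts earlier in the epiblast, had 2.26 at signals of 2.13 to 41.1. Smad1 and Bmp8b, a transducer and a ligand of the BMP pathway, had -0.33 and 1.05, with overlapping groups.

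Of 16 transcription and chromatin factors that germ cells share with pluripotent cells 13 were higher and 3 lower in value in null pools, with a median log2 difference of 0.32. Zfp42 (Rex1), a marker of naive pluripotency, had 99.4, 121 and 148 in null pools and 75.9, 74.8 and 78.9 in wild-type pools. The groups did not overlap, and the log2 difference was 0.66, with an interval from 0.09 to 1.23 (limma, adjusted p = 0.963). Tfap2c, which acts with Prdm1 and Prdm14, had 2248, 3581 and 3548 in null pools and 2159, 1603 and 2532 in wild-type pools. Its log2 difference was 0.57, and it was higher in each of the 3 pairs. Utf1 and Dppa5a, genes of pluripotent cells, had 0.73 and 0.61, with overlapping groups. For Utf1, null pool 1 stood far above the rest, with 307 against 153 and 112 in null pools 2 and 3 and 98.6 to 113 in wild-type pools. Cbfa2t2, a partner of Prdm14, was the other gene of the list whose groups did not overlap (log2 difference 0.22), but a second Cbfa2t2 probe set was separated the opposite way (-0.41).

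Tfap2c is also made in extraembryonic ectoderm. All 3 measured markers of that tissue, of 5 on the list, were higher in value in null pools, with sums that did not overlap, 365 to 577 in null pools against 145 to 253 in the wild type. Plet1 was the brightest of them on every array, with 197 to 386 in null pools and 79.9 to 131 in wild-type pools, so the sums rest largely on this gene. It had a log2 difference of 1.26, with groups that did not overlap. Elf5 had 1.91 and Ascl2 had 1.48, with overlapping groups, at signals of 10.4 to 118 and 2.98 to 76.3. The lowest signal of both was in wild-type pool 1. In pairs 1 to 3 Elf5 stood at 3.46, 2.28 and -0.01, and Ascl2 at 4.68, -0.35 and 0.11. For another tissue, surface ectoderm, 3 of 6 measured markers were higher and 3 lower in value, with a median log2 difference of 0.03. Their summed signal ran from 14687 to 15615 in null pools, inside the wild-type span of 12727 to 16097. The part of either tissue in the values of Tfap2c was not tested.

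Of 6 genes of migration, survival and adhesion 4 were higher and 2 lower in value, with a median log2 difference of 0.16. Cdh1 (E-cadherin), which holds epithelial and germ cells together, had 4746, 4689 and 4523 in null pools and 4195, 3517 and 2630 in wild-type pools. Those groups did not overlap, and the log2 difference was 0.46. The chemokine Cxcl12, which guides germ cells, had 0.20, its receptor Cxcr4 had -0.03 and the integrin Itgb1 had 0.22, with overlapping groups.

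Of 9 measured genes of the later germ line 5 were higher and 4 lower in value, with a median log2 difference of 0.17. Ddx4 (Vasa), an RNA helicase of the germ line, had 135, 168 and 141 in null pools and 100, 119 and 56.8 in wild-type pools. The groups did not overlap, and the log2 difference was 0.74, with an interval from -0.09 to 1.58. Tdrd7 had 1.02, Tdrd1 had -0.51 and Sycp3 had 0.23, with overlapping groups.

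Of 14 measured relatives of the members 5 were higher and 9 lower in value, with a median log2 difference of -0.12. Flt3, a receptor of the Kit family, had 25.2, 40.7 and 13.6 in null pools and 7.02, 9.69 and 6.03 in wild-type pools. Those groups did not overlap (log2 difference 1.70, limma, adjusted p = 0.798), at signals below the median of every array. Csf1r, another relative of Kit, had 0.89 with overlapping groups. Pdgfrb, also a relative of Kit, was separated the other way, with 509 to 690 in null pools and 778 to 864 in wild-type pools. Its log2 difference was -0.38, and that of its relative Pdgfra was -0.17 with overlapping groups.

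**Figure D5:**
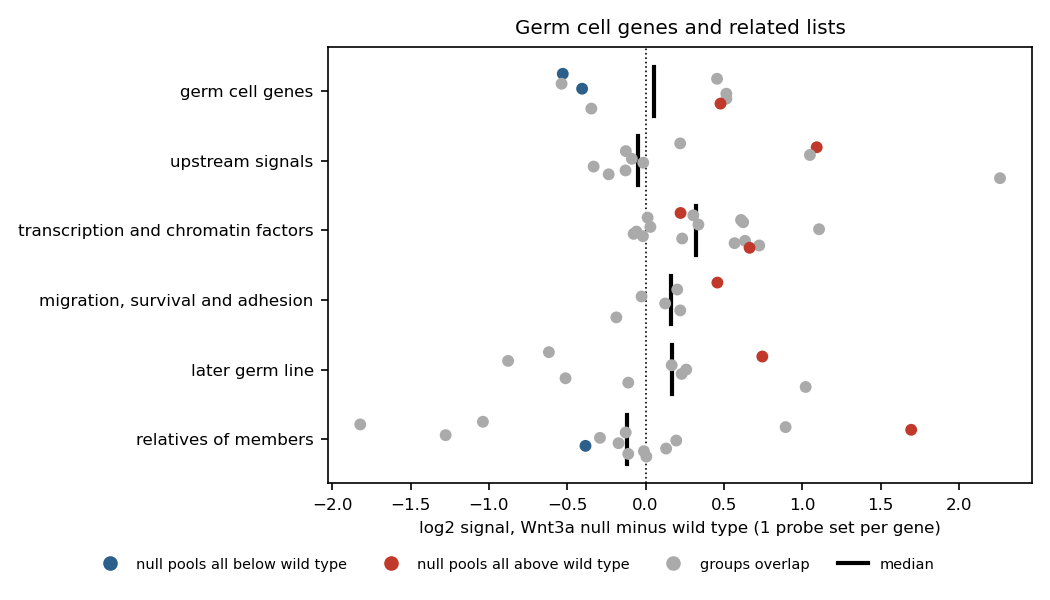
Log2 difference (null minus wild type, horizontal axis) of the brightest probe set of each gene, by list; blue points are genes whose null pools all lie below, red points those whose null pools all lie above the wild-type pools, grey points overlap, and black bars are medians. The median of the germ cell genes is 0.05 and that of the transcription and chromatin factors 0.32.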

How the data were processed

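Per the submitters' processing notes the values come from RMA, but the deposited intensities are linear, differ in distribution between arrays and have a mean of 500.0 after trimming 2% at each end of each array. No source names the step that made them. They were turned to log2 with no further background step, filter or floor. The 64 control probe sets were left out. Symbols come from the platform annotation, and 9 of 9 member probe sets matched RefSeq by gene ID.

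The comparison was fitted with limma 3.58.1 under R 4.3.3 (lmFit, eBayes, no block), two-sided, with Benjamini-Hochberg adjustment over 45037 probe sets. The sign, size and interval of known changes, not the power, were checked on simulated data. Nothing in the labels shows whether pools of 1 genotype came from separate litters. The number of arrays limits the precision. Deviations from the genotype means correlated within pool numbers at 0.0537, 0.0524 and 0.0338 over all probe sets, and at 0.422, 0.454 and 0.281 (0.1 was the bound for pairing) over those with a mean log2 above 7; what pools of 1 number share is not stated, and the block is an alternative.

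Members and lists were chosen with earlier results of these data known. All member probe sets are named; of each related list, up to 4 genes with the smallest p are given. Bmp4, Cxcr4, Cbfa2t2, Ifitm2, Ifitm6, Nanos1, Pdgfra, Pdgfrb, the other Kitl probe sets and the named tissue markers were added after their values were seen.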

Additional observations from a re-analysis of the deposited data

How the results depend on the processing

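The count of called members was 0 under every alternative run. Over all probe sets limma called 0, with trend and robust options 1, with the replicate block 0 and with the block and both options 22; the smallest adjusted p of a member was 0.843 with the block and 0.249 with the block and both options (limma). A filter at the median signal, median centring, quantile normalization, log2 of signal + 50, 1 probe set per gene and leaving out single arrays also called 0. The number of members whose groups did not overlap was 3 under each scaling, filter and variance model, and 3 to 5 without single arrays (added after seeing the data), when 18.2% to 21.1% of all probe sets did not overlap; Prdm1, Alpl and Ifitm1 were among them each time, and Ifitm3 and Dnd1 joined without wild-type pool 2, both Kit probe sets without wild-type pool 3. Without single arrays Prdm14 ran from -1.71 to 0.38 (it was positive without null pool 1 at 0.31, wild-type pool 2 at 0.38 and wild-type pool 3 at 0.29) and the dimmer Kit probe set from -0.032 (without wild-type pool 2) to 1.07 on the log2 scale; no other member changed sign under any alternative. The dim probe sets of Prdm14, Dppa3 and Kit limit what these arrays can show.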

Other observations

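Nanos1, a relative of the unmeasured Nanos3, had a second, dimmer probe set that was singled out after its values were seen. It had 43.4, 34.6 and 38.0 in null pools and 6.73, 8.46 and 7.72 in wild-type pools. The log2 difference was 2.34 (limma, adjusted p = 0.245), at signals below the median of every array. The brighter Nanos1 probe set had 88.2, 69.3 and 69.8 in null pools and 52.0, 94.6 and 61.4 in wild-type pools, with overlapping groups and a log2 difference of 0.17. The allantois gene Tbx4 had 19.8, 339 and 212 in null pools and 8.84, 122 and 168 in wild-type pools, so the pools numbered 1 were the lowest of both genotypes, as they were for Prdm14 and Bmp4, whereas the order of pools 2 and 3 differed from theirs.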
